A study of Mus musculus with 12 samples.

Results

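Trp53, the gene of the transcription factor p53, and 9 of its target genes in the heart (Mdm2, Cdkn1a, Ccng1, Phlda3, Trp53inp1, Zmat3, Sesn1, Gdf15 and Eda2r) were followed in mouse left ventricles after doxorubicin. The 10 genes were chosen by name from the 53465 genes of the table, and all 10 passed the filter on low counts that left 16101 genes for testing. Hearts of 12 mice were sequenced, 1 library each, in 4 groups of 3. A17fl/fl mice (ADAM17flox/flox in the labels) carry floxed Adam17 alleles. A17α-MHCKO mice (ADAM17alpha-MHCKO in the labels) carry the same floxed alleles with Cre under the α-MHC promoter, which removes exon 2 of Adam17 in cardiomyocytes. Mice of each genotype received doxorubicin (DOX, an anthracycline that damages DNA) at 5 mg/kg intraperitoneally on days 0, 7, 14 and 21, 20 mg/kg in all, or an equal volume of normal saline (NS). They were male littermates on a C57BL/6J background, aged 8 weeks at the first injection, and hearts were taken 4 weeks after the last. No mouse without floxed alleles and no mouse with Cre alone was among the groups, so what the alleles or Cre do by themselves was not measured.

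In an unstressed cell p53 is made and destroyed continuously, because the ubiquitin ligase Mdm2, itself a p53 target, marks it for degradation. DNA damage, such as the breaks that anthracyclines leave through topoisomerase II, frees p53 from Mdm2 mainly by changes to the protein, so the level of Trp53 mRNA need not follow p53 activity. Freed p53 binds a palindromic consensus element near its targets and raises genes that stop the cell cycle, repair DNA, limit oxidants or start cell death. Adult cardiomyocytes have largely left the cell cycle, and in the heart several of these targets are also driven by other stress pathways.

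RefSeq promoter windows of 300 bases (250 before and 50 after the transcription start, GRCm38.p6) were on hand for 8 of the 10 genes, 11 windows in all; Zmat3 and Trp53inp1 had no entry. The 20-base p53 consensus element, searched by its name as 2 adjoining decamers and equal on both strands, was met with at most 1 mismatch in 2 of the 11 windows, those of Ccng1 and Cdkn1a. Of all 32851 windows 0.0883% held such a match. With up to 3 mismatches 4 of the 11 windows and 6.29% of all windows held one, the further ones being in Trp53 and Sesn1. The 2 matches with at most 1 mismatch are shown, chosen by their letters alone. In the further window of Cdkn1a, chr17:29093519-29093818, the best site had 5 mismatches. The position given below for Cdkn1a counts from the transcription start of its matched window. Each stretch of 60 bases is written 5′ to 3′ on the strand of its gene, with the matched element in capitals. A match is a description of letters, and binding of p53 was not measured. The submitters' processing notes name GRCm39, so these coordinates are not those of the count table.
Cdkn1a, chr17:29090908-29090967, plus strand, element 51 to 32 bases before the start: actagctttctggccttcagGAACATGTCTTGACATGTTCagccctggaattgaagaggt
Ccng1, chr11:40755442-40755501, minus strand, element 195 to 176 bases before the start: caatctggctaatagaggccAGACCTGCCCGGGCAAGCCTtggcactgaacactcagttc

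Total counts per library ran from 15950717 to 21725076. Adam17, the targeted gene, had 43.6 to 70.9 TMM-normalized CPM (counts scaled to the effective library size) in the 6 A17fl/fl hearts and 27.9 to 36.8 CPM in the 6 A17α-MHCKO hearts, with no overlap. All 8 cardiomyocyte markers were detected in every heart. A17fl/fl + NS replicate 1 stood apart. Its 8 neutrophil markers summed to 3312 CPM against 17.2 to 85.4 CPM in the other 11 hearts, its 8 fibroblast markers to 8733 against 1329 to 2940 CPM, its 8 macrophage markers to 2523 against 696 to 1031 CPM, and its 8 immediate-early genes to 1094 against 178 to 309 CPM. Its 8 cardiomyocyte markers summed to 16605 CPM, against 25715 to 43238 CPM. None of the neutrophil, fibroblast, macrophage or cardiomyocyte markers was at 0 in any heart. The part that these cells had in the values of p53 targets was not tested, and values without this heart are given beside those that it moved most. In whole tissue, fewer cells of a type and less RNA per cell cannot be told apart.

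Counts are compared below as TMM-normalized CPM. Fold changes are on the log2 scale from edgeR's quasi-likelihood test, with a standard error (SE) and a Benjamini-Hochberg adjusted p that takes in the 16101 genes. No member had an adjusted p under 0.05 in any of 6 comparisons by edgeR, so the words higher and lower describe values, and counts of members at an unadjusted p under 0.05 are set beside the same count over all genes, also for the fit without A17fl/fl + NS replicate 1, which tested 16406 genes.

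Across genes, levels were compared per length, as FPKM over the 12 hearts. Ccng1 was highest, at 160 FPKM ± 28.4 (SD, n = 12). Sesn1 (34.0 ± 8.77) and Cdkn1a (29.9 ± 25.8) came next and did not differ beyond their spread, followed by Phlda3 at 12.7 ± 3.42. Mdm2 (3.98 ± 0.658), Trp53inp1 (3.19 ± 1.04) and Trp53 (2.73 ± 0.770) overlapped one another. Gdf15 (0.927 ± 1.35), Zmat3 (0.778 ± 0.183) and Eda2r (0.693 ± 0.218) were the lowest and overlapped as well. Cdkn1a and Gdf15 varied by more from heart to heart than the others, with the highest heart 7.37 times the lowest for Cdkn1a and 16.5 times the lowest for Gdf15 in CPM, against 1.79 times for Mdm2 and 1.83 times for Ccng1. With A17fl/fl + NS replicate 1 left out, Gdf15 was the lowest of the 10, at 0.544 FPKM ± 0.223 (SD, n = 11), and its highest heart was 3.56 times the lowest in CPM, while that of Cdkn1a was 5.60 times the lowest.

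**Figure D1:**
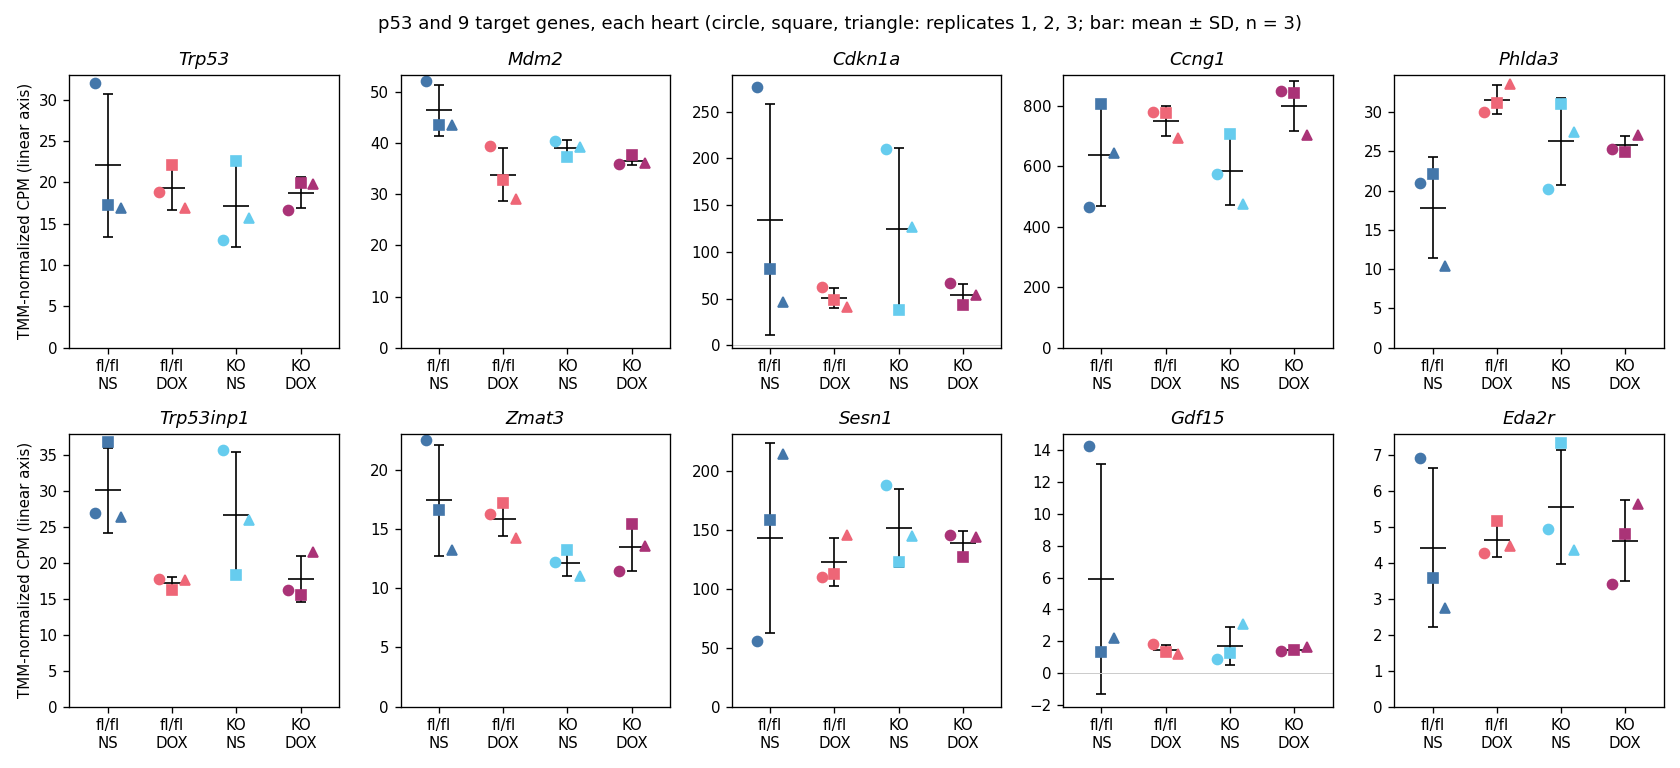
TMM-normalized CPM (y axis, linear, from 0) of p53 and 9 target genes in each of the 12 hearts, with the 4 groups on the x axis; black bars give the mean ± SD of 3 hearts. Cdkn1a spans 46.4 to 276 CPM in A17fl/fl + NS hearts and 41.0 to 62.6 CPM in A17fl/fl + DOX hearts, and the high Gdf15 value of 14.3 CPM is A17fl/fl + NS replicate 1 alone.

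Doxorubicin against saline was the first question, and over both genotypes 5 of the 10 genes had an unadjusted p under 0.05. Ccng1 and Phlda3 were higher after doxorubicin, and Cdkn1a, Mdm2 and Trp53inp1 were lower. Trp53 itself differed little. Of all tested genes 5.47% were higher and 5.20% lower at the same limit. The median log2 fold change of the 10 genes was -0.14, with 3 of 10 above 0. That of all tested genes was -0.03, with 7344 of 16101 above 0. Leaving out A17fl/fl + NS replicate 1 gave a median of -0.06, with 5 of 10 above 0. In that fit 1 member (Phlda3) was higher and 4 (Cdkn1a, Mdm2, Sesn1 and Trp53inp1) were lower at an unadjusted p under 0.05, against 7.57% and 7.45% of all genes. At an adjusted p under 0.05, edgeR called 0 members and 0% of all genes, limma's voom with library weights called 0 members, and DESeq2 called 1, Trp53inp1. In 0 of the 10 genes were the 6 DOX hearts clear of the 6 NS hearts, against 1.16% of all genes. The study's own limits ask for a log2 fold change beyond 1 in size, p under 0.05 before adjustment and, in either group, more than 1 FPKM on average. The study applied them to doxorubicin against saline in A17fl/fl mice and to the genotypes after doxorubicin. Here they are set on the p of the quasi-likelihood test and on every comparison, so the calls are not the study's own. By these limits 1 member, Cdkn1a, was called, against 0.814% of all genes. At -0.77 without A17fl/fl + NS replicate 1 its fold change was under the limit.

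Trp53 encodes p53. It had 32.0, 17.2 and 16.9 CPM in A17fl/fl + NS hearts and 18.9, 22.2 and 16.9 CPM in A17fl/fl + DOX hearts. In A17α-MHCKO hearts it had 13.03, 22.6 and 15.8 CPM after saline and 16.6, 19.9 and 19.8 CPM after doxorubicin. All 4 groups overlapped, and the highest value was that of A17fl/fl + NS replicate 1. The doxorubicin effect over both genotypes was -0.03 (SE 0.19, 95% interval -0.45 to 0.38, adjusted p = 0.961 by edgeR). Leaving out that heart gave 0.15 (adjusted p = 0.653 by edgeR).

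Mdm2 encodes the ligase that removes p53. It had 52.2, 43.6 and 43.5 CPM in A17fl/fl + NS hearts and 39.5, 32.9 and 29.1 CPM in A17fl/fl + DOX hearts, so that every treated heart was below every saline heart. In A17α-MHCKO hearts the values were 40.4, 37.2 and 39.2 CPM after saline and 36.0, 37.7 and 36.1 CPM after doxorubicin, which overlapped. The log2 fold change was -0.46 in A17fl/fl mice (SE 0.13, adjusted p = 0.358 by edgeR) and -0.09 in A17α-MHCKO mice (SE 0.13, adjusted p = 0.929 by edgeR). The difference between these effects was 0.37 (SE 0.19, interval -0.04 to 0.77, adjusted p = 0.844 by edgeR). With A17fl/fl + NS replicate 1 left out, the A17fl/fl effect was -0.37 (adjusted p = 0.375 by edgeR).

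Cdkn1a encodes p21, the cyclin-dependent kinase inhibitor through which p53 halts the cell cycle. It had 276, 81.3 and 46.4 CPM in A17fl/fl + NS hearts and 62.6, 48.1 and 41.0 CPM in A17fl/fl + DOX hearts. In A17α-MHCKO hearts it had 210, 37.5 and 127 CPM after saline and 66.3, 42.8 and 53.4 CPM after doxorubicin. The 3 highest values were all saline hearts, 1 A17fl/fl and 2 A17α-MHCKO, while the other 3 saline hearts had 37.5 to 81.3 CPM, against 41.0 to 66.3 CPM in the 6 treated ones. The 6 DOX hearts had a mean of 52.4 CPM ± 10.4 (SD) and the 6 NS hearts 130 CPM ± 95.6 (SD). Over both genotypes the log2 fold change was -1.31 (SE 0.46, adjusted p = 0.382 by edgeR), the largest in size among the 10 genes in that comparison. It was -1.41 in A17fl/fl (adjusted p = 0.470 by edgeR) and -1.20 in A17α-MHCKO mice (adjusted p = 0.807 by edgeR).

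How far Cdkn1a was lower depended on 1 saline heart in each genotype. Leaving out A17fl/fl + NS replicate 1 gave -0.77 over both genotypes (adjusted p = 0.328 by edgeR) and -0.34 in A17fl/fl mice (adjusted p = 0.852 by edgeR). Leaving out A17α-MHCKO + NS replicate 1 gave -0.59 in A17α-MHCKO mice, where the effects without each of the other hearts ran from -1.64 to -1.06. In A17α-MHCKO + NS replicates 1 and 3, neutrophil markers summed to 29.9 and 25.7 CPM. Immediate-early genes summed to 178 and 265 CPM, the former being the lowest of the 12 hearts. The 10 glucocorticoid-responsive genes summed to 2106, 738 and 1165 CPM in A17α-MHCKO + NS replicates 1, 2 and 3. In A17fl/fl + NS replicates 1, 2 and 3 they summed to 2125, 2052 and 3449 CPM. Pdk4, 1 of the 10, alone gave 144, 712 and 2264 CPM of the A17fl/fl + NS sums. Of the A17α-MHCKO + NS sums it gave 834, 95.9 and 177 CPM. The order of the sums from heart to heart thus depends on this gene. What raised Cdkn1a in some saline hearts was not tested. A gene model on the opposite strand (AC167363.2 in the GRCm38 annotation) overlaps Cdkn1a, and whether the counting used strand is not stated.

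Ccng1 encodes cyclin G1, a p53 target that acts back on Mdm2 through a phosphatase. It had 465, 805 and 645 CPM in A17fl/fl + NS hearts and 778, 775 and 693 CPM in A17fl/fl + DOX hearts. The A17α-MHCKO hearts had 574, 705 and 476 CPM after saline and 849, 843 and 703 CPM after doxorubicin. The groups overlapped by 1 saline heart in each genotype. Over both genotypes Ccng1 was higher after doxorubicin by 0.34 (SE 0.15, adjusted p = 0.452 by edgeR), and by 0.25 (adjusted p = 0.356 by edgeR) without A17fl/fl + NS replicate 1, which had the lowest value. Its direction was thus opposite to that of Cdkn1a, and neither gene had an adjusted p under 0.05 by edgeR. A promoter window of each holds a close match to the p53 element, and what the match does here was not tested. In A17α-MHCKO mice, whose values do not involve A17fl/fl + NS replicate 1, the effect was 0.45 (adjusted p = 0.785 by edgeR). The p does involve it through the shared fit, and without that heart the adjusted p was 0.349 by edgeR.

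Phlda3 encodes a small membrane-bound protein that competes with Akt for phosphoinositides and so represses Akt. Its CPM were 20.9, 22.1 and 10.4 in A17fl/fl + NS and 30.0, 31.1 and 33.6 in A17fl/fl + DOX hearts, without overlap. In A17α-MHCKO hearts its CPM were 20.2, 31.1 and 27.5 after saline and 25.3, 24.9 and 27.1 after doxorubicin, the treated values lying inside the saline range. The A17fl/fl effect was 0.82 (SE 0.25, adjusted p = 0.358 by edgeR), and the A17α-MHCKO effect was -0.03 (SE 0.24, interval -0.57 to 0.51). Phlda3 was the only member whose difference between the 2 doxorubicin effects had an unadjusted p under 0.05, at -0.85 (SE 0.35, adjusted p = 0.828 by edgeR). The low saline value of 10.4 CPM belonged to A17fl/fl + NS replicate 3. Without that heart the A17fl/fl effect was 0.55, and without replicate 1 it was 0.95.

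Trp53inp1 encodes a stress-induced nuclear protein that promotes p53 phosphorylation and autophagy. It had 27.0, 36.9 and 26.4 CPM in A17fl/fl + NS hearts and 17.8, 16.2 and 17.6 CPM in A17fl/fl + DOX hearts, without overlap. The A17α-MHCKO hearts had 35.8, 18.4 and 26.0 CPM after saline and 16.2, 15.6 and 21.5 CPM after doxorubicin, and 1 treated heart exceeded 1 saline heart. Of the 10 genes it had the smallest p over both genotypes, with a log2 fold change of -0.70 (SE 0.16, interval -1.06 to -0.34, adjusted p = 0.261 by edgeR). DESeq2 gave -0.71 with an adjusted p of 0.0196, and limma's voom with library weights -0.69 with an adjusted p of 0.143. The effect was -0.81 in A17fl/fl (adjusted p = 0.358 by edgeR) and -0.59 in A17α-MHCKO mice (adjusted p = 0.751 by edgeR), and their difference had an interval of -0.50 to 0.94. Leaving out each heart in turn moved the effect over both genotypes between -0.80 and -0.56.

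Zmat3 encodes an RNA-binding zinc finger protein that acts in splicing downstream of p53. Its CPM were 22.5, 16.6 and 13.2 in A17fl/fl + NS and 16.3, 17.2 and 14.2 in A17fl/fl + DOX hearts. In A17α-MHCKO hearts they were 12.2, 13.2 and 11.04 after saline and 11.5, 15.5 and 13.6 after doxorubicin. Treated and saline hearts overlapped in both genotypes, and the effect over both was 0.01 (SE 0.14, interval -0.30 to 0.31, adjusted p = 0.987 by edgeR), and 0.12 without A17fl/fl + NS replicate 1.

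Sesn1 encodes sestrin 1, which restrains mTORC1 and limits oxidants. It had 55.7, 158 and 214 CPM in A17fl/fl + NS hearts and 110, 112 and 146 CPM in A17fl/fl + DOX hearts. The A17α-MHCKO hearts had 188, 123 and 145 CPM after saline and 146, 127 and 144 CPM after doxorubicin. The lowest of the 12 values was that of A17fl/fl + NS replicate 1 and the highest that of replicate 3 of the same group. Over both genotypes the effect was -0.17 (SE 0.26, adjusted p = 0.830 by edgeR). Without replicate 1 it was -0.37 (adjusted p = 0.264 by edgeR), and in A17fl/fl mice alone -0.61 (adjusted p = 0.353 by edgeR), both at an unadjusted p under 0.05. A gene model on the same strand (9930024M15Rik in the GRCm38 annotation) overlaps Sesn1.

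Gdf15 encodes a circulating stress cytokine that acts on the brainstem receptor Gfral with the coreceptor Ret. It had 14.3, 1.3 and 2.2 CPM in A17fl/fl + NS hearts, and 1.8, 1.4 and 1.2 CPM in A17fl/fl + DOX hearts. In A17α-MHCKO hearts it had 0.9, 1.3 and 3.1 CPM after saline and 1.4, 1.4 and 1.6 CPM after doxorubicin. The first value rests on 247 counts and the other 11 on 14 to 53 counts each. The A17fl/fl effect of -2.02 (SE 0.78, adjusted p = 0.421 by edgeR) was decided by that heart, and without it the effect was -0.27 (adjusted p = 0.872 by edgeR). In A17α-MHCKO mice it was -0.22 (interval -1.93 to 1.49), and without A17α-MHCKO + NS replicate 3, the heart at 3.1 CPM, it was 0.47.

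Eda2r encodes a receptor of the tumor necrosis factor family that binds ectodysplasin A2. Its CPM were 6.9, 3.6 and 2.8 in A17fl/fl + NS and 4.3, 5.2 and 4.5 in A17fl/fl + DOX hearts. In A17α-MHCKO hearts they were 4.9, 7.3 and 4.4 after saline and 3.4, 4.8 and 5.6 after doxorubicin. All 4 groups overlapped. The effect over both genotypes was -0.10 (SE 0.24, interval -0.63 to 0.43, adjusted p = 0.904 by edgeR), and without A17fl/fl + NS replicate 1 it was 0.14.

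**Figure D2:**
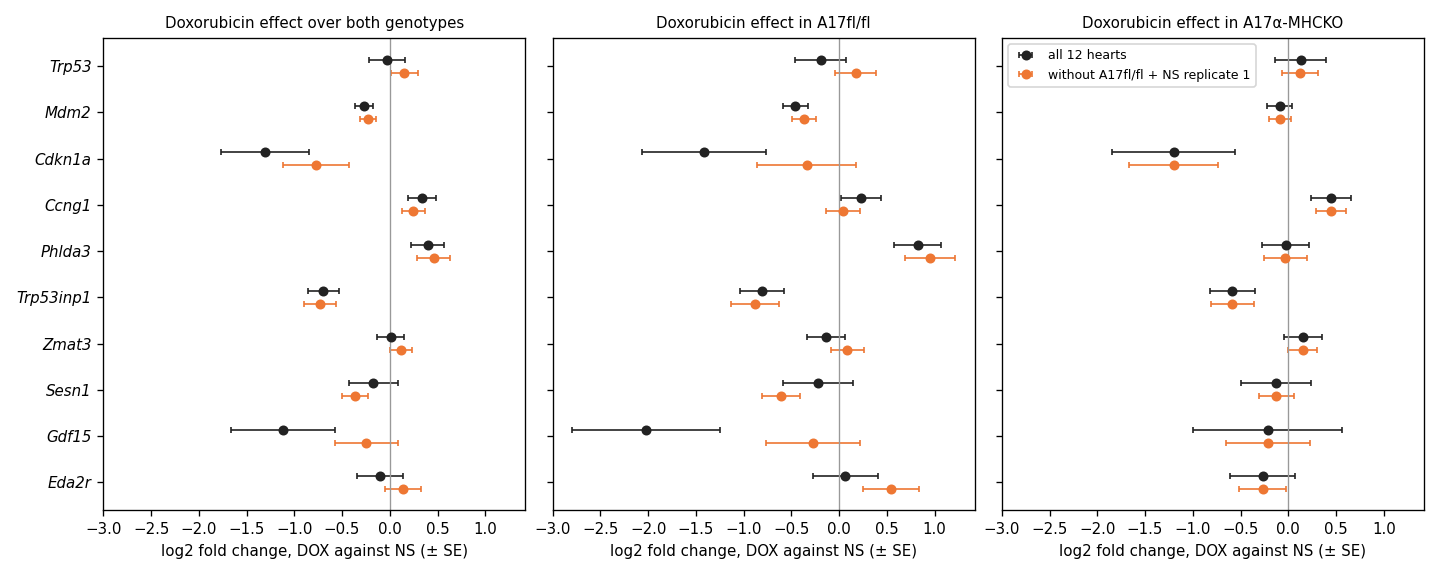
Log2 fold change ± SE (x axis) of DOX against NS hearts for the 10 genes (y axis), over both genotypes and in each, from all 12 hearts (black) and without A17fl/fl + NS replicate 1 (orange). Trp53inp1 stays between -0.88 and -0.59 in all 6 estimates, while Gdf15 in A17fl/fl mice goes from -2.02 to -0.27 and Cdkn1a from -1.41 to -0.34 without that heart.

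Within A17fl/fl mice, 1 member was higher and 3 were lower at an unadjusted p under 0.05, against 4.11% and 6.58% of all tested genes. Phlda3 was the higher one, and Mdm2, Gdf15 and Trp53inp1 were lower. Of these, Mdm2, Phlda3 and Trp53inp1 did not overlap between the groups, 3 of 10 against 13.3% of all genes. Of the 10, edgeR and DESeq2 called 0 at an adjusted p under 0.05, and edgeR 0% of all genes. The study's limits called 1 member, Gdf15, and 2.82% of all genes. The median of the 10 was -0.21 and that of all genes -0.04. Without replicate 1 of A17fl/fl + NS the counts were again 1 higher and 3 lower, with Sesn1 in the place of Gdf15, against 4.63% and 5.60% of all genes.

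Within A17α-MHCKO mice, 0 members were higher and 1, Trp53inp1, was lower at an unadjusted p under 0.05, against 3.97% and 2.44% of all genes. Both edgeR and DESeq2 called 0 of the 10 at an adjusted p under 0.05, and edgeR 0% of all genes. In 0 of 10 genes were the groups clear of each other, against 16.9% of all genes, and the study's limits called 0 members and 0.658% of all genes. The median of the 10 was -0.11 and that of all genes 0.00. These are the same 6 hearts in the fit without A17fl/fl + NS replicate 1, where 1 (Ccng1) was higher and 2 (Cdkn1a and Trp53inp1) were lower at an unadjusted p under 0.05. Over all genes the shares of that fit were also larger, at 6.59% higher and 4.88% lower. The fold changes were the same to within 0.01, and the SE of Cdkn1a was 0.47 in place of 0.65.

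Whether the effect of doxorubicin depended on the genotype was tested by the difference between the 2 effects. At an unadjusted p under 0.05, 0 members were higher and 1 (Phlda3, given above) was lower, against 3.50% and 2.49% of all genes. At an adjusted p under 0.05, edgeR and DESeq2 called 0 members and edgeR 0% of all genes, and the study's limits met 0 members and 2.13% of all genes. For Gdf15 the difference was 1.81 (interval -0.59 to 4.21) and for Cdkn1a 0.21 (interval -1.76 to 2.19). Leaving out A17fl/fl + NS replicate 1 gave 0.06 and -0.86. In that fit 0 members were higher and 1, again Phlda3, was lower, against 3.82% and 3.30% of all genes.

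Between the genotypes after saline, 1 member was higher in A17α-MHCKO hearts and 2 were lower at an unadjusted p under 0.05, against 3.61% and 6.53% of all genes. Phlda3 was higher by 0.56 (SE 0.25, adjusted p = 0.473 by edgeR), Gdf15 was lower, at -1.78 (adjusted p = 0.462 by edgeR), and Zmat3 was lower, at -0.52 (SE 0.20, adjusted p = 0.409 by edgeR). Mdm2 and Zmat3 did not overlap between the genotypes, 2 of 10 against 10.9% of all genes, though for Zmat3 the nearest hearts were at 13.215 and 13.219 CPM. At an adjusted p under 0.05, edgeR and DESeq2 called 0 members and edgeR 0.0186% of all genes. The study's limits called 1 member, Gdf15, and 2.99% of all genes. Leaving out A17fl/fl + NS replicate 1 put Gdf15 at -0.02 and Zmat3 at -0.30, and 2 members were then higher at an unadjusted p under 0.05, Eda2r by 0.81 (adjusted p = 0.379 by edgeR) and Phlda3 by 0.69 (adjusted p = 0.404 by edgeR), and 0 were lower, against 4.58% and 5.65% of all genes. This comparison and the doxorubicin effect in A17fl/fl mice share the 3 A17fl/fl + NS hearts.

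Between the genotypes after doxorubicin, 0 of the 10 genes had an unadjusted p under 0.05, against 1.52% of all genes higher and 1.19% lower. The count was also 0 in the fit without A17fl/fl + NS replicate 1, against 3.35% and 2.49%. At an adjusted p under 0.05, edgeR and DESeq2 called 0 members and edgeR 0.00621% of all genes, and the study's limits called 0 members and 0.205% of all genes. Log2 fold changes of the 10 ran from -0.29 for Phlda3 to 0.18 for Sesn1. Phlda3 was the 1 gene of 10 whose groups did not overlap, against 14.1% of all genes, with 30.0 to 33.6 CPM in A17fl/fl and 24.9 to 27.1 CPM in A17α-MHCKO hearts (log2 fold change interval -0.83 to 0.24). The intervals were narrow for Mdm2, -0.18 to 0.40, and wide for Gdf15, -1.70 to 1.77.

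Other genes of the pathway were read from lists by role, with counts at an unadjusted p under 0.05. These counts stand against the shares of all genes given above, which over both genotypes were 5.47% higher and 5.20% lower with all 12 hearts, and 7.57% and 7.45% without A17fl/fl + NS replicate 1. Of 14 genes that control p53 (kinases, acetylases and inhibitors), 13 were tested, and 0 were higher and 0 lower over both genotypes. Their median was -0.12. Without that heart 2 were lower, Ep300 at -0.33 and Prkdc, the DNA-dependent protein kinase, at -0.34, and the median was -0.15. With all 12 hearts the 2 with the smallest p were Chek1, a checkpoint kinase, at -0.80 (adjusted p = 0.497 by edgeR), or -0.51 without that heart, and Ep300, an acetyltransferase of p53, at -0.24 (adjusted p = 0.560 by edgeR). Chek1 lay at or below 1.2 CPM in all 12 hearts. In A17fl/fl mice 2 of the 13 were lower, against 6.58% of all genes, Chek1 at -1.45 (adjusted p = 0.433 by edgeR) and Cdkn2a at -2.60 (adjusted p = 0.334 by edgeR). Without that heart these were -0.86 and -1.54, and 3 were lower (Cdkn2a, Ep300 and Prkdc), against 5.60% of all genes. Cdkn2a, which encodes inhibitors of Mdm2 and of cyclin-dependent kinases, was at 1.14 (adjusted p = 0.826 by edgeR) in A17α-MHCKO mice. Its 2 effects differed by 3.74 (SE 0.99, adjusted p = 0.828 by edgeR), or 2.68 without that heart. Over both genotypes Cdkn2a was at -0.73, or -0.20 without that heart. Its level in single hearts is not given here. Cdkn2a and Prkdc are named after their values were seen.

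Of 15 further targets in cell cycle arrest and DNA repair, 0 were higher and 2 lower over both genotypes, with a median of -0.16. Btg2, an antiproliferative cofactor, was at -0.40 (SE 0.17, adjusted p = 0.452 by edgeR), and Polk, a translesion DNA polymerase, at -0.33 (SE 0.13, adjusted p = 0.422 by edgeR). Without A17fl/fl + NS replicate 1 the count was 1 higher (Plk2, a polo-like kinase named after its value was seen, at 0.46) and 1 lower (Polk), and the median was -0.06. Btg2 had 123, 55.1 and 79.9 CPM in A17fl/fl + NS and 52.1, 45.9 and 40.1 CPM in A17fl/fl + DOX hearts. In A17α-MHCKO hearts it had 48.0, 42.4 and 53.7 CPM after saline and 57.9, 48.6 and 47.5 CPM after doxorubicin. Only the A17fl/fl groups were clear of each other for Btg2, and its effects were -0.90 (adjusted p = 0.334 by edgeR) in A17fl/fl and 0.10 (adjusted p = 0.970 by edgeR) in A17α-MHCKO mice. The heart at 123 CPM was A17fl/fl + NS replicate 1, and without it Btg2 was at -0.23 over both genotypes (adjusted p = 0.3998 by edgeR) and at -0.56 in A17fl/fl mice (adjusted p = 0.347 by edgeR). In A17fl/fl mice 4 of the 15 were lower and 0 higher, against 6.58% and 4.11% of all genes. Without that heart 2 were lower (Btg2 and Polk) and 1 higher (Plk2), against 5.60% and 4.63%.

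Of 13 targets in cell death, 1 was higher and 1 lower over both genotypes, with a median of -0.05. Counts within each genotype are not given here for this list. Effects of opposite sign in A17fl/fl and A17α-MHCKO mice would cancel in the pooled values, so genes other than those named may differ within a genotype. Perp, a desmosomal membrane protein that p53 induces in apoptosis, was higher by 0.38 (SE 0.10, adjusted p = 0.301 by edgeR). It had 162, 145 and 129 CPM in A17fl/fl + NS and 171, 180 and 186 CPM in A17fl/fl + DOX hearts, and 150, 141 and 173 CPM after saline and 247, 183 and 209 CPM after doxorubicin in A17α-MHCKO hearts. For Perp the treated hearts were above the saline hearts within each genotype. Fas, a death receptor, was at -0.64 (SE 0.21, adjusted p = 0.360 by edgeR), with 40.3, 18.7 and 24.9 CPM in A17fl/fl + NS and 15.5, 13.4 and 11.4 CPM in A17fl/fl + DOX hearts. In A17α-MHCKO hearts Fas overlapped, at 27.2, 12.96 and 19.5 CPM after saline and 16.7, 17.2 and 16.9 CPM after doxorubicin. Without A17fl/fl + NS replicate 1, 2 genes of the list were higher and 1 lower and its median was 0.14, so its sign rests on that heart.

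Of 12 targets in metabolism and redox control, 1 was higher and 0 lower over both genotypes, with a median of -0.11. For this list, too, counts within each genotype are not given here. Sco2, an assembly factor of cytochrome c oxidase, was at 0.35 (adjusted p = 0.467 by edgeR), and Gls2, the p53-induced glutaminase, at -0.84 (adjusted p = 0.536 by edgeR) with at most 1.1 CPM in any heart. Without A17fl/fl + NS replicate 1 the count was 0 higher, with Sco2 at 0.34 (adjusted p = 0.363 by edgeR), and 1 lower, Pank1, a pantothenate kinase named after its value was seen, at -0.39 (adjusted p = 0.269 by edgeR). The median was then -0.0056. In these 4 lists edgeR, DESeq2 and limma's voom each called 0 genes at an adjusted p under 0.05, in the doxorubicin effect over both genotypes and in each genotype. Genes chosen by smallest p within their lists are examples and not a test of the lists.

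**Figure D3:**
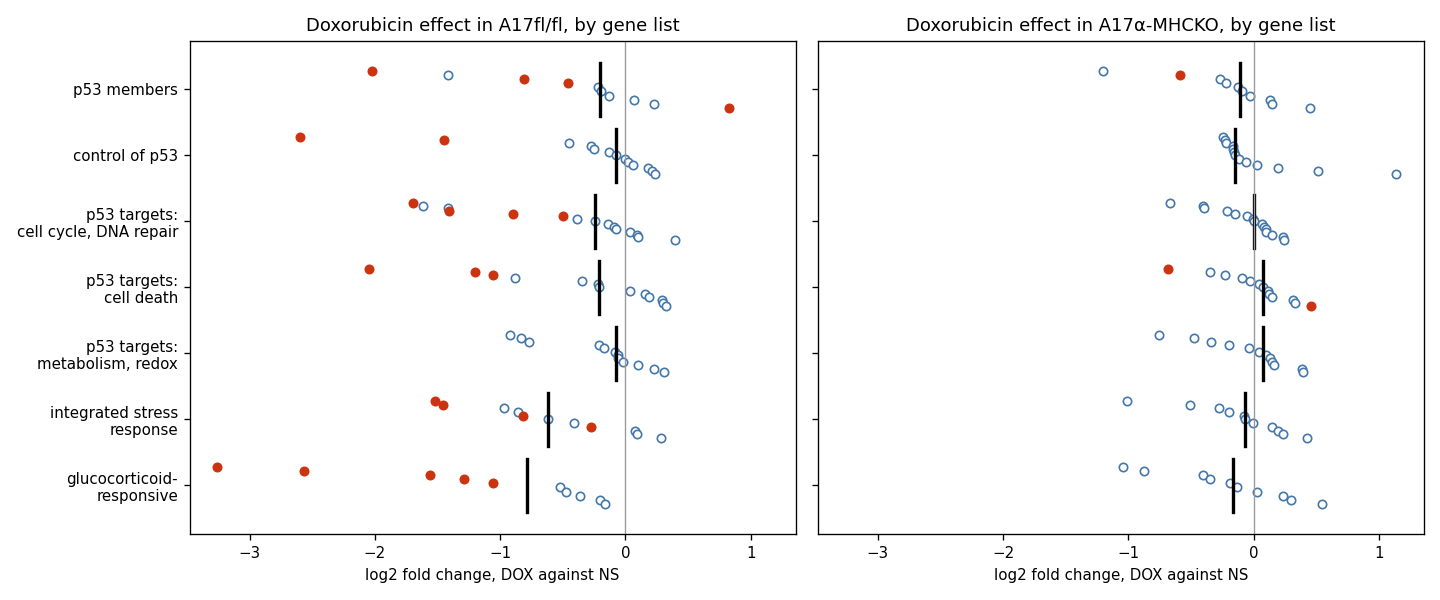
Log2 fold change of DOX against NS (x axis) for each tested gene of the p53 lists, the integrated stress response list and the glucocorticoid-responsive list (y axis), in A17fl/fl and A17α-MHCKO mice; filled red points have an unadjusted p under 0.05, open points do not, and the black line is the median. In A17fl/fl mice the medians lie between -0.79 and -0.07 (between -0.82 and 0.22 without A17fl/fl + NS replicate 1, the cell death list being the one above 0), and in A17α-MHCKO mice between -0.16 and 0.08.

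The 10 genes did not move together from heart to heart. Of their 45 pairs, 23 had a positive and 20 a negative Spearman correlation of log2 CPM over the 12 hearts, with a median of 0.01. Without A17fl/fl + NS replicate 1, 17 of the 45 were positive. These are descriptions in which all points share libraries and groups. Mdm2 was most alike Trp53inp1 (0.77) and most opposed to Phlda3 (-0.78), and without A17fl/fl + NS replicate 1 these were 0.74 and -0.75. Trp53 was most alike Zmat3 (0.69) and most opposed to Sesn1 (-0.76). Trp53 and Cdkn1a were at -0.29, and at -0.67 without that heart.

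Among 14459 tested genes with a mean over 1 CPM, the 5 whose pattern was most alike that of Cdkn1a over the 12 hearts were Dcun1d3 (Spearman 0.95), Ube2j1 (0.91), Zfp36 (0.90), Gm5844 (0.88) and Ndel1 (0.88). Zfp36 encodes an RNA-binding protein that destabilizes cytokine mRNAs, and Ube2j1 a ubiquitin-conjugating enzyme of the endoplasmic reticulum. Zfp36 had 102 CPM in A17fl/fl + NS replicate 1 and 28.8 to 53.3 CPM in the other 11 hearts. Without that heart the 5 values were between 0.85 and 0.94. In A17α-MHCKO + NS replicate 1, where Cdkn1a had 210 CPM, Dcun1d3 had 11.9 CPM, against 8.4 to 13.1 CPM in the hearts other than these 2.

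For Eda2r the 5 most alike genes were Sephs1 (0.94), Top2a (0.93), Tdrd7 (0.92), F11r (0.90) and Kit (0.90), and without that heart they were between 0.87 and 0.93. Top2a encodes topoisomerase II alpha, the proliferation-bound target of anthracyclines, and Kit a receptor tyrosine kinase. Top2a had 23.4 CPM in A17fl/fl + NS replicate 1 and 1.4 to 7.4 CPM in the other 11 hearts, and like Eda2r it was lowest among A17fl/fl + NS hearts in replicate 3.

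**Figure D4:**
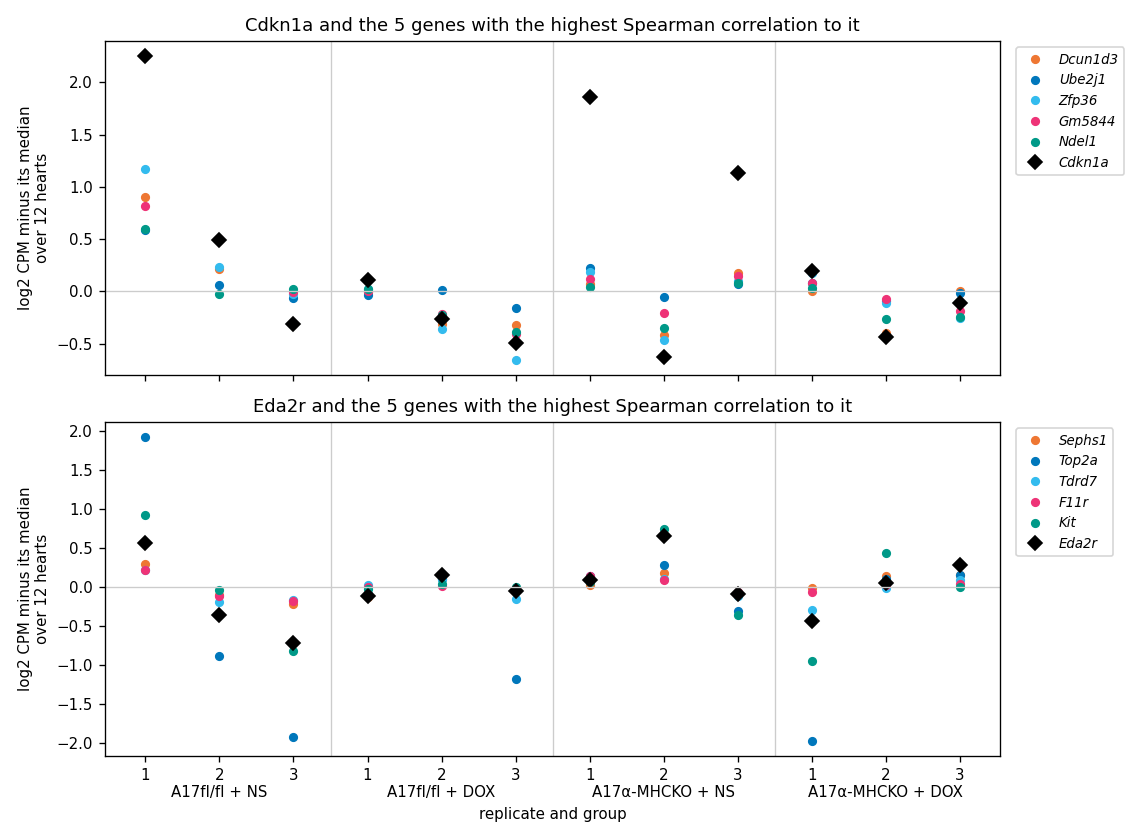
Log2 CPM minus the median over the 12 hearts (y axis) for Cdkn1a (top) and Eda2r (bottom), drawn as black diamonds, and the 5 genes with the highest Spearman correlation to each, drawn as colored points, by replicate and group (x axis). Cdkn1a reaches 276 and 210 CPM in replicate 1 of the A17fl/fl + NS and A17α-MHCKO + NS groups. The 5 genes drawn with it were chosen for following its order of hearts, and they span a smaller range.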

How the data were processed

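RNA was sequenced from left ventricles of 12 mice, 3 in each of 4 groups. Per the methods, stranded paired-end mRNA libraries were made and StringTie counted fragments per gene. The submitters' processing notes name CASAVA 1.8, HISAT2, SAMtools 1.3.1, edgeR and GRCm39. The annotation release and the strand setting are not given in the sources used here. The authors deposited whole-number counts per gene without normalization, and FPKM, which are the same counts per gene length and library total. Counts were used for all tests, FPKM for levels across genes and for the study's expression limit, and 0 columns were left unused.

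Tests used edgeR 4.0.16 in R 4.3.3 (filterByExpr, TMM, glmQLFit, glmQLFTest) in 1 fit of the 4 groups, after a test of the code on simulated data. The simulated libraries were given less spread than these hearts have, so that test does not measure the sensitivity reached here. P-values are two-sided and adjusted by the Benjamini-Hochberg method over 16101 genes, with a common dispersion of 0.0842, so the spread between mice exceeds counting error for all but the lowest genes. The SE, derived from the size of the fold change and its F statistic, is approximate. Log2 CPM used a prior count of 2. DESeq2 1.42.0, limma 3.58.1 (voom with library weights), other scalings, filters and fits, and each library left out in turn were alternatives. Values without A17fl/fl + NS replicate 1 for whole lists were added after seeing the data.

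The members and lists were chosen with earlier results of these data known. Named genes are the 10 members, Adam17, the 5 genes most alike Cdkn1a and Eda2r, and from each list the genes with an adjusted p under 0.05 in any comparison (up to 3 per direction) or, where there were none, the 2 with the smallest p in the doxorubicin effect over both genotypes. A gene named outside this rule is marked where it appears.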

Additional observations from a re-analysis of the deposited data

How the results depend on the processing

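The number of members with an adjusted p under 0.05 was 0 in all 6 comparisons by edgeR and stayed 0 in every alternative except DESeq2. DESeq2 called 1 (Trp53inp1) in the doxorubicin effect over both genotypes. Leaving out each heart in turn gave 0 throughout. The study's limits, which use an unadjusted p, called 1 member in the doxorubicin effect over both genotypes (Cdkn1a). They also called 1 in A17fl/fl mice (Gdf15) and 1 between the genotypes after saline (Gdf15). Of 31 fold changes of members that were followed through the alternatives, 23 kept their direction in all of them and 8 turned in some.

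Over both genotypes, Trp53 turned to 0.0023 with upper-quartile normalization and 0.17 with voom, and ran from -0.11 to 0.15 as hearts were left out. Eda2r was 0.19 with voom and ran from -0.22 to 0.14. Zmat3 was -0.0041 with DESeq2 and ran from -0.074 to 0.12, and Sesn1 ran from -0.37 to 0.036. In A17α-MHCKO mice Phlda3 ran from -0.18 to 0.10 and Gdf15 from -0.53 to 0.47. The genotype difference of the doxorubicin effect was -0.77 with voom for Cdkn1a and ran from -0.86 to 0.82, and that of Trp53inp1 ran from -0.0084 to 0.49. The cause was not tested. Other scalings moved the median of all genes by less than 0.1.

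Replicate numbers did not pair the hearts: over 18 same-numbered pairs the correlation of deviations was -0.10 to 0.22. With a replicate block, 0 members passed in each comparison, and Trp53inp1 over both genotypes was at -0.70 and Cdkn1a at -1.06. At 14 to 53 counts in 11 of 12 hearts, the depth limits Gdf15.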

Other observations

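Genes of neighboring stress pathways were read from the same fit. Of 10 glucocorticoid-responsive genes, 0 were higher and 3 lower after doxorubicin over both genotypes at an unadjusted p under 0.05. Of all genes 5.47% were higher and 5.20% lower. All 10 fold changes were below 0, with a median of -0.55. The median of all tested genes was -0.03, with 7344 of 16101 above 0. Errfi1, a feedback inhibitor of the EGF receptor, was at -0.85 (SE 0.23, adjusted p = 0.301 by edgeR). It had 108, 76.0 and 51.7 CPM in A17fl/fl + NS and 41.2, 35.0 and 20.4 CPM in A17fl/fl + DOX hearts, without overlap. In A17α-MHCKO hearts Errfi1 had 56.2, 48.8 and 45.5 CPM after saline and 53.3, 33.02 and 27.2 CPM after doxorubicin, and overlapped. Pdk4, the kinase that shuts off pyruvate dehydrogenase in fasting, was at -1.72 (adjusted p = 0.402 by edgeR). Its saline values spread widely, at 144, 712 and 2264 CPM in A17fl/fl + NS and 834, 95.9 and 177 CPM in A17α-MHCKO + NS hearts. After doxorubicin Pdk4 had 114 to 313 CPM in the 6 hearts. Without A17fl/fl + NS replicate 1, which was not among its high hearts, the effect on Pdk4 was -1.98 (adjusted p = 0.162 by edgeR) and that on Errfi1 -0.70 (adjusted p = 0.193 by edgeR), and 4 of the 10 genes were lower, against 7.45% of all genes. At an adjusted p under 0.05 over both genotypes edgeR and limma's voom called 0 of these genes and DESeq2 called 1, Errfi1.

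Of 12 integrated stress response genes, a pathway that like p53 can raise Gdf15, 11 were tested, and 1 was higher and 3 were lower over both genotypes (median -0.27) at an unadjusted p under 0.05, against 5.47% and 5.20% of all genes. Without A17fl/fl + NS replicate 1, 0 were higher and 1, Chac1, was lower, against 7.57% and 7.45%. Chac1, a glutathione-degrading enzyme, was at -0.90 (SE 0.27, adjusted p = 0.321 by edgeR). It had 6.1, 8.9 and 11.5 CPM in A17fl/fl + NS hearts and 2.1, 3.0 and 4.0 CPM in A17fl/fl + DOX hearts, without overlap, and 2.3 to 5.3 CPM in the 6 A17α-MHCKO hearts. Atf4, the central transcription factor of the response, was at -0.44 (adjusted p = 0.452 by edgeR), with 162 CPM in A17fl/fl + NS replicate 1 and 58.1 to 90.7 CPM in the other 11 hearts, and at -0.23 (adjusted p = 0.401 by edgeR) without that heart. The median of the list without that heart was -0.10.

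Of 5 partners of Eda2r and Gdf15, 3 were tested. Edar, the receptor of the other ectodysplasin isoform, was at -1.17 (adjusted p = 0.394 by edgeR) with at most 1.0 CPM in any heart. Ret, the coreceptor of Gfral, was at 0.27 (adjusted p = 0.660 by edgeR), with 6.1 to 14.5 CPM. Gfral and Edaradd were below the filter on low counts.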
